A study of Mus musculus with 4 samples.

Results

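Clustered histone genes are the 67 rows, of 32285 gene expression rows in both count matrices, whose symbol starts with Hist1h, Hist2h, Hist3h or Hist4h. They were chosen by symbol and not by any measured value. Per GENCODE M21 on the mm10 build, 54 lie on chromosome 13, 10 on chromosome 3, 2 on chromosome 11 and 1 on chromosome 6. They encode 6 linker histones H1 and the 4 core histones, with 18 H2A, 18 H2B, 12 H3 and 13 H4 genes. In these bone marrow cells 46 members rose by at least 1 log2 unit in cells scored as S-like, while 4 stayed nearly flat there and 5 fell. The members as a whole were high in cells with a raised G2/M score, and not in cells with a raised S score alone. In counts of both libraries summed, most of them were higher where both scores were raised than with the G2/M score alone. In counts of the v3.1 library alone, most members did not pass as higher that way.

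Single-cell RNA was measured in bone marrow of 2 male mice aged 3 months that carried Tppp3CreER, a tamoxifen-inducible Cre driven by the Tppp3 gene, and LSLTdTomato, a reporter switched on by Cre. All cells came from animals given tamoxifen at postnatal days 0 and 3, so no untreated or Cre-free group was used here, and tdTomato marks cells in which the Cre had acted after birth and their descendants. Cells negative for lineage markers and positive for Sca-1 and Kit were sorted into a tdTomato-negative and a tdTomato-positive tube per mouse, tagged with 4 hashtag antibodies, and run in a GEM-X and in a v3.1 library, both chemistries of 10x Genomics. Haematopoietic stem cells (HSCs) is the name the submitters give them, but the sort also takes multipotent progenitors. Of the genes behind the sort, Kit held between 285 and 373 UMIs on the counts-per-million scale (CPM) in the 4 tubes and Ly6a, which encodes Sca-1, between 58.0 and 64.5 CPM.

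The GEM-X library held 234563105 UMIs in 20511 barcodes and the v3.1 library 178214937 UMIs in 17755 barcodes, with 0 barcodes in common, and 32330 cells with exactly 1 hashtag were used. The tubes held 12144 cells (mouse 1 negative), 3867 (mouse 1 positive), 12386 (mouse 2 negative) and 3933 (mouse 2 positive). Both tubes of a mouse come from 1 animal, so the p-values for phase, gate and class rest on the spread among sums from 2 mice, pooled over genes. Those for chemistry rest on tubes that share 1 library per chemistry, and they do not measure the spread between libraries. Each chemistry is 1 library with its own Cell Ranger version, and chemistry, library and version cannot be told apart.

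Histone mRNA of the replication-dependent type differs from other mRNA in that it ends in a conserved stem-loop in place of a poly(A) tail. The stem-loop is bound by Slbp, the stem-loop binding protein, which brings the U7 small nuclear ribonucleoprotein to cut the transcript just behind it. The messages are made in bulk while DNA is copied and are degraded when replication stops. Some of these genes also give longer transcripts that run past the stem-loop to a poly(A) site, and those are found in cells that do not divide. Both chemistries capture RNA by its poly(A) tail, so what is counted here is the RNA of these genes that oligo(dT) can prime, not all of their mRNA.

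The annotated transcripts of 46 members hold a 6-base-pair stem with a 4-base loop within 150 bases after the stop codon. Among these 46 there are 8 different 16-base stem-loops. The commonest is shared by 26 members of the H1, H2A, H2B and H3 families, and the next by 7 members, all of them H4 genes. The following sites include both of these forms, and Hist1h3c and Hist1h4i hold less common ones. The first 3 are from members that rose by at least 1 log2 unit in S-like cells and the other 5 from members that did not. Each is the RNA-sense strand written as DNA, 5′ to 3′, from GENCODE M21 (mm10), and capitals mark the stem-loop.
Hist1h3c, chr13:23745042-23745067, minus strand: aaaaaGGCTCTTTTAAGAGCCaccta
Hist1h2ab, chr13:23751567-23751592, plus strand: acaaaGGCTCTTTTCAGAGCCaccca
Hist1h4d, chr13:23581945-23581970, plus strand: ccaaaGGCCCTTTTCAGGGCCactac
Hist1h1c, chr13:23739507-23739532, plus strand: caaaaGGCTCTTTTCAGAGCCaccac
Hist1h2ac, chr13:23683472-23683497, minus strand: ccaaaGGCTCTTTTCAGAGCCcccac
Hist1h4i, chr13:22040961-22040986, minus strand: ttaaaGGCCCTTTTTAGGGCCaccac
Hist3h2a, chr11:58955167-58955192, plus strand: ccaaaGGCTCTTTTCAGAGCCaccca
Hist4h4, chr6:136803993-136804018, minus strand: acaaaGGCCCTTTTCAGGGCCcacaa

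The stem-loops do not separate these genes, since Hist1h2ab, Hist1h1c, Hist1h2ac and Hist3h2a have the same 16 bases. How far the annotated transcript goes on differs among them, but it does not fully separate them either. Behind the stem-loop it continues for 11 bases in Hist1h2ab and 74 bases in Hist1h3c. It runs on for 330 bases in Hist1h4i, 840 in Hist1h1c, 1643 in Hist3h2a, 2010 in Hist1h2ac and 2445 in Hist4h4. Hist1h4d, with 770 bases behind its stem-loop, is a member that rose and still runs on.

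Cells were placed by 2 scores, an S score over 42 genes and a G2/M score over 52 genes, none of them a member. The usual rule gave 17594 G1-like, 9597 S-like and 5139 G2/M-like cells, with 9.12%, 7.64% and 4.38% of each within 0.05 of a cut, so the names are ranges of a score and not cell types. Sums of UMIs per mouse were compared with edgeR's quasi-likelihood test and Benjamini-Hochberg adjustment over all genes, with the mouse as a block. The test covered 61 members. The other 6 had hardly any UMIs: Hist1h2ba and Hist2h2aa2 had 0 in every tube, and Hist1h1t, Hist1h2aa, Hist1h2bq and Hist1h4m had at most 0.087 CPM in any tube. Hist1h1t, Hist1h2aa and Hist1h2ba are known as testis histones.

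In S-like against G1-like cells 53 of 61 members were higher and 5 lower, where 34.1% of all genes tested were higher and 32.6% lower. The median log2 difference was 2.12 over the members and -0.02 over all genes. In G2/M-like against G1-like cells all 61 tested members were higher, with a median of 4.03, where 35.5% of all genes were higher. The members were sorted by the S-like difference alone: 46 with at least 1 log2 unit are called S-linked here, 4 within 0.5 of zero are called flat, and 11 are intermediate. This sorting is a description, and the members nearest the upper cut were Hist1h4c at 1.0 and Hist1h1d at 0.98 just below it and Hist1h4d at 1.10 just above it. Near the lower cut stood Hist1h2ao at 0.34 and Hist1h1c at 0.30 on the flat side and Hist1h1e at 0.53 and Hist2h2be at -0.54 on the other.

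Among the S-linked members with the highest CPM, Hist1h1b, which encodes linker histone H1.5, had 23.2 CPM in G1-like cells of mouse 1 and 22.4 in mouse 2, 377.3 and 381.3 in S-like cells and 1309 and 1357 in G2/M-like cells. Its S-like difference was 4.21 (SE 0.0335, adjusted p = 1.64e-12 in edgeR's quasi-likelihood test). Both mice showed the same order of the 3 ranges and no overlap between them. Hist1h1a, which encodes the linker histone H1.1, went from 14.2 and 12.9 CPM through 139.9 and 165.2 to 387.2 and 431.4. Hist1h3c, an H3 gene, went from 2.95 and 2.58 CPM through 91.5 and 105.5 to 475.7 and 495, one of the largest S-like differences at 5.31 (SE 0.0703, adjusted p = 8.25e-12 by the same edgeR test). 3 further members follow the same path: Hist1h2ae and Hist1h2ap, both H2A genes, rose by 2.73 and 3.20 log2 units, and the H4 gene Hist1h4d by 1.10. Hist1h2ap is uncertain as a single gene, because every 50-base stretch of the last 300 bases of its transcript also occurs in another gene's transcript.

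The linker histone genes divided. Hist1h1a and Hist1h1b were S-linked, while Hist1h1c (H1.2), Hist1h1d (H1.3) and Hist1h1e (H1.4) were already well above zero in G1-like cells. Hist1h1e held 258.5 and 259.3 CPM in G1-like cells of the 2 mice, 309 and 363.9 in S-like cells and 1188 and 1350 in G2/M-like cells. Hist1h1c held 91.8 and 85.0, 91.2 and 104, and 423.5 and 467.5 CPM in the same order, so its S-like cells overlapped its G1-like cells. The annotated 3′ end of Hist1h1e lies on the same strand as an upstream exon of Hist1h2be, so UMIs there cannot be given to 1 of the 2 genes with certainty.

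The 5 members that fell in S-like cells were Hist1h2bc, Hist2h2be and Hist3h2ba, which encode H2B, the H2A gene Hist3h2a and the H4 gene Hist1h4i. Hist1h2bc fell from 49.2 and 36.4 CPM in G1-like to 21.7 and 18.2 in S-like cells, a log2 difference of -0.94 (SE 0.0474, adjusted p = 6.23e-08 by edgeR's quasi-likelihood test). Hist3h2a fell from 11 and 11.3 to 3.72 and 3.88 CPM, and its difference was -1.40 (SE 0.106, adjusted p = 1.26e-06 by the same test). Hist3h2ba, at -1.47, fell furthest, and Hist1h4i and Hist2h2be fell by 0.61 and 0.54 log2 units. Hist2h2be had few UMIs, with 2.33 and 2.66 CPM in G1-like and 1.36 and 1.71 in S-like cells. It did not pass as lower in DESeq2, in v3.1 counts alone or with S-like cells chosen by their share of S score UMIs. Without 1 unnamed cluster of 691 cells, which Hist1h2bc and Hist1h4i lead, Hist1h4i no longer passed (-0.23, adjusted p = 0.1 by edgeR) and Hist1h2bc fell by 0.66. All 5 were higher in G2/M-like than in G1-like cells, from 0.32 for Hist3h2a to 1.24 for Hist1h4i, although in mouse 2 Hist3h2a had 10.7 CPM in G2/M-like and 11.3 CPM in G1-like cells.

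The 4 flat members were Hist1h1c at 0.30, Hist1h2ac at -0.10, Hist1h2ao at 0.34 and Hist4h4 at -0.004. They are flat in S-like cells only, since each passed as higher in G2/M-like cells, by 2.55, 1.35, 2.25 and 1.32 log2 units. Hist1h2ao had a mean of 0.474 CPM over the tubes, too few UMIs to place it firmly. A list of 7 members known from background knowledge to give polyadenylated transcripts outside S phase (Hist1h1c, Hist1h2ac, Hist1h2bc, Hist1h2be, Hist2h2be, Hist3h2a and Hist4h4) had 2 higher and 3 lower in S-like cells and a median of -0.10, against the 53 higher and 5 lower of all 61 tested. The list was written with earlier results of these data known and is not independent of them. The flat group depends on the chemistry: in v3.1 counts alone 12 members lay within 0.5 of zero, of these 4 only Hist4h4, and Hist1h1c and Hist1h2ac passed as lower. With S-like cells chosen by their share of S score UMIs, 3 members were flat, of these 4 only Hist1h2ac.

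Splitting the cells by the signs of both scores set the members apart more sharply. These 4 ranges were added after the values had been seen: 17594 cells had neither score above 0, 4937 the S score alone, 7585 both and 2214 the G2/M score alone. Their median depths were 7010, 9980, 14310 and 13947 UMIs, so depth moved with the ranges, and its part in the levels was not tested here. Summed over the 46 S-linked members, mouse 1 and mouse 2 had 359.5 and 345.4 CPM in cells with neither score, 310.4 and 305.8 with the S score alone, 5418 and 5762 with both and 3449 and 3042 with the G2/M score alone. Cells with the S score alone thus stood no higher than cells with neither score in either mouse.

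**Figure D1:**
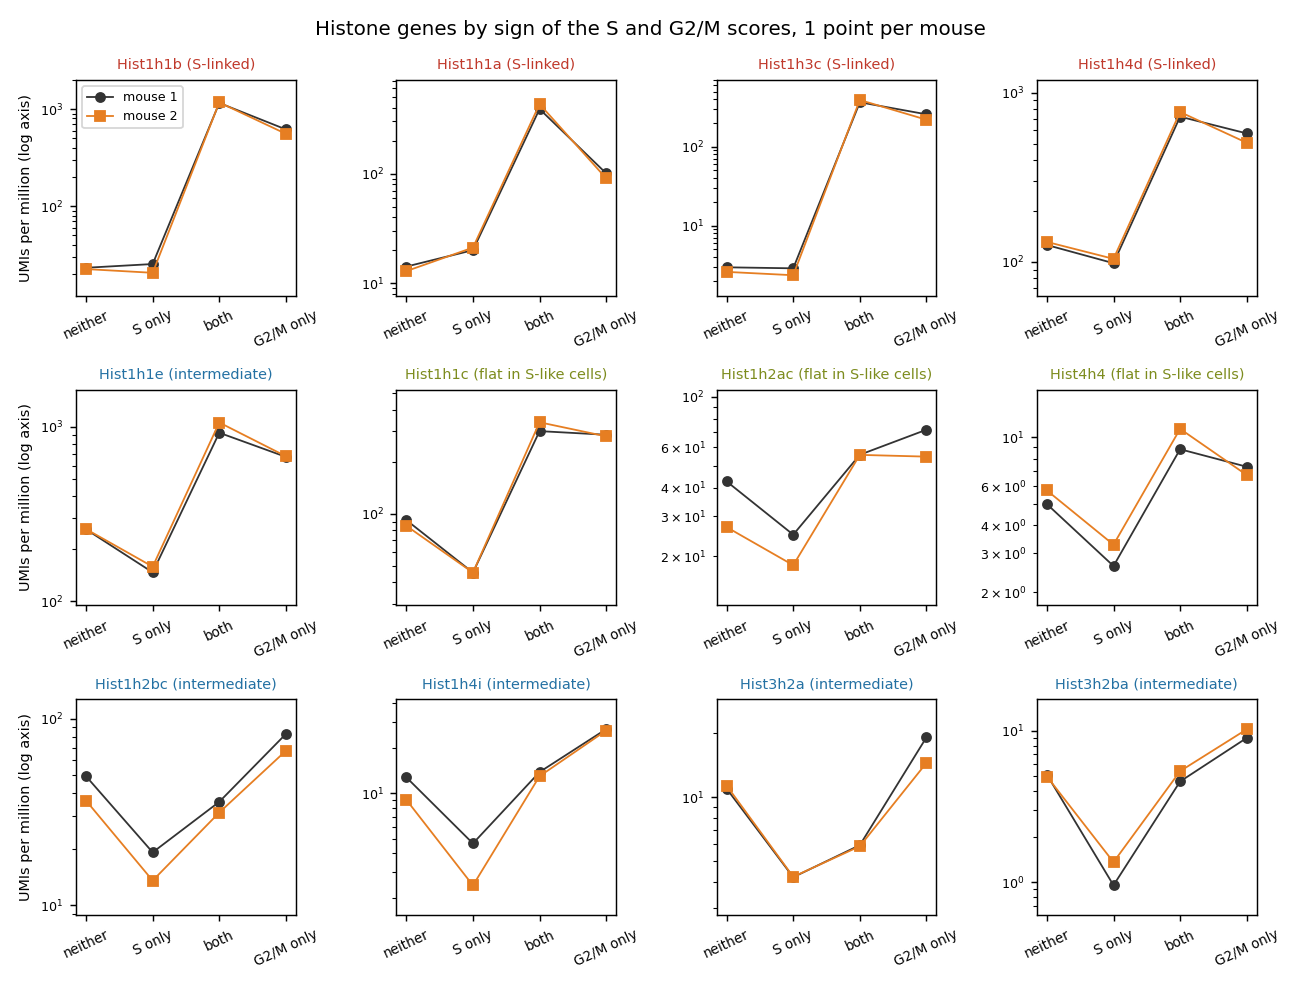
CPM (log axis) of 12 named members in the 4 score ranges, 1 point per mouse and range, with titles coloured by class. Hist1h1b, Hist1h1a, Hist1h3c and Hist1h4d stand highest in cells with both scores above 0, while Hist1h2bc, Hist1h4i, Hist3h2a and Hist3h2ba stand highest in cells with the G2/M score alone.

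With the S score alone against neither score, 5 of 61 members were higher, where 28.2% of all genes were, and 20 were lower, where 24.8% were. The 5 were Hist1h1a (0.71), Hist1h2bm (0.98), Hist1h3a (0.89), Hist1h4a (1.13) and Hist2h2ac (0.33), all S-linked. Hist1h1a had 14.2 and 12.9 CPM with neither score and 20.1 and 21.2 CPM with the S score alone. Hist1h1b did not pass, at 0.12 (SE 0.0751, adjusted p = 0.182 by edgeR's quasi-likelihood test). The 11 intermediate members were lower without exception, from -2.05 for Hist3h2ba to -0.31, as were 3 of the 4 flat ones. Hist1h1e, for example, had 258.5 and 259.3 CPM with neither score and 146.4 and 157.9 with the S score alone.

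With both scores above 0 against neither, 57 of 61 members were higher, where 36.8% of all genes were, and 1 was lower. The lower one was Hist3h2a, at -0.70 (SE 0.103, adjusted p = 3.95e-05 by the same test). Hist1h1b reached 1156 and 1171 CPM here, Hist1h3c 367.4 and 392.6, and Hist1h1a 388.2 and 430.3. Hist1h2bc, at 35.9 and 31.5 CPM against 49.2 and 36.4 with neither score, did not pass (log2 difference -0.12, SE 0.0568, adjusted p = 0.0803 by edgeR), nor did Hist2h2be and Hist3h2ba. All 46 S-linked members and all 4 flat members were among those higher. With the G2/M score alone against neither, all 61 tested members were higher, where 28.9% of all genes were, with a median log2 difference of 3.13 over the members and -0.02 over all genes.

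From both scores to the G2/M score alone, 48 of 61 members were lower, where 29.2% of all genes were, and 6 were higher, where 23% were. The steepest drop was that of Hist1h1a, to 100.6 and 90.6 CPM, a log2 difference of -2.16 (SE 0.0619, adjusted p = 2.14e-11 by edgeR's quasi-likelihood test). Hist1h1b dropped to 617.4 and 556.1 CPM, while the difference of Hist1h2ac did not pass (0.10, SE 0.11, adjusted p = 0.473 by edgeR). The 6 higher members were Hist3h2a (1.46), Hist1h2bc (1.08), Hist1h4i (0.90), Hist2h3c2 (0.87), Hist3h2ba (0.86) and Hist2h2be (0.60). In v3.1 counts alone 10 members were higher and 12 lower of 58 tested. Over all genes 6445 of 14513 were then called in either direction.

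The unnamed cluster of 691 cells supplied 434 of the 2214 cells with the G2/M score alone and 23 of those with both scores. Without it 3 members were higher and 47 lower, where 7880 of 15893 genes were called in either direction. The 3 were Hist3h2a (1.48), Hist3h2ba (0.81) and Hist1h2bc, whose difference fell to 0.41 (adjusted p = 0.000398 by edgeR's quasi-likelihood test), while Hist1h4i (0.30, adjusted p = 0.0936 by edgeR), Hist2h3c2 and Hist2h2be did not pass. Hist1h2bc had 83.0 and 67.5 CPM with the G2/M score alone, and 50.5 and 40.9 CPM without the cluster. Hist1h4i had 26.8 and 26.3 CPM, and 17.7 and 16.6 CPM without it. These were the highest of the 4 ranges in both mice with and without the cluster, although without it Hist1h2bc had 41.2 and 29.1 CPM with neither score.

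The transcript annotation went along with these groups. Of the members whose annotated transcript ends within 100 bases after the stem-loop, 20 were S-linked, 1 flat (Hist1h2ao), 0 intermediate and 2 untested. Of those that run on for more than 100 bases, 10 were S-linked, 9 intermediate, 3 flat and 1 untested. The other 21 had no stem-loop in the annotated transcript, many of these models stopping at the end of the coding sequence, and 16 of them were S-linked. The median S-like difference was 3.05 for members that end early, 0.99 for those that run on and 2.79 for those without an annotated stem-loop. Hist1h2bc and Hist2h2be, which fell in S-like cells, lack the stem-loop within 150 bases of the stop codon in the annotated transcript, which runs on for 742 and 2192 bases after that codon. An annotated end is not a measured one in these cells, and the counts do not show where a UMI lay.

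The families differed little in the direction of the S-like difference. Its median was 0.98 for 5 H1 genes, 2.89 for 16 H2A, 2.46 for 16 H2B, 1.99 for 12 H3 and 1.41 for 12 H4 genes. S-linked members were 2 of the 6 H1, 13 of the 18 H2A, 12 of the 18 H2B, 11 of the 12 H3 and 8 of the 13 H4 genes. Of the 67 members, 49 share at least one 50-base stretch near the 3′ end with another gene's transcript and 18 share none, so the counts of single members among the 49 are uncertain. Hist1h1a, Hist1h1b, Hist1h4d, Hist1h1c, Hist1h2ac, Hist1h4i and Hist3h2a are among the 18.

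Promoter sequence was read from a RefSeq-based table (GRCm38.p6) that held 61 members, from 250 bases before to 50 after the annotated start, on both strands. The octamer ATTTGCAT, known as the element of H2B promoters that binds the Oct1 protein, was found in 13 of the 61, against 1.74% of 32851 promoters. It stood in 7 of 18 H2A and 6 of 16 H2B windows and in 0 of the H1, H3 and H4 windows, and neighbouring H2A and H2B genes can share 1 window. CCAAT was found in 52 of 61 members and 37.4% of all promoters, and TATAAA in 34 of 61 and 13.6%. By class the octamer stood in 9 of 44 S-linked, 1 of 7 intermediate (Hist3h2a) and 1 of 4 flat members (Hist1h2ac). A match to these letters is a description of the window and no evidence of binding.

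Genes that make and handle histones were mostly higher in S-like than in G1-like cells as well. In a list of histone transcription and 3′-end processing genes, 22 of 27 were higher and 2 lower in S-like cells, where 34.1% of all genes were higher and 32.6% lower, with the cyclin E genes Ccne1 at 4.82 and Ccne2 at 4.29, the transcription factor E2f1 at 3.76 and Slbp at 2.01. Of 20 histone chaperone and import genes all 20 were higher, among them Asf1b (4.14), which carries H3 and H4, Chaf1a (3.20), a subunit of the chromatin assembly factor, Nasp (2.61), a carrier of H3, H4 and H1, and Mcm2 (2.42) of the replicative helicase. Some of these are themselves genes of the S score, so their rise was built into the scoring: Ccne2, Slbp and Casp8ap2 in the first list, and Nasp, Mcm2 and Chaf1b in the second. Anp32e, in the second list, is a gene of the G2/M score. Without these score genes 19 of 24 and 16 of 16 were higher and 2 and 0 lower. The lists were not compared over the 4 score ranges, where single genes differed. E2f1 had 6.32 and 5.99 CPM in the 2 mice with neither score and 53.9 and 60.2 with the S score alone. With the G2/M score alone it had 4.52 and 3.73 CPM. Asf1b had 2.33 and 3.29, 10.9 and 15.7, and 37.0 and 49.3 CPM in the same order. Of 11 tested variant histones outside the clusters, 8 were higher and 2 lower, the same 8 and 2 as in the 10 left without Cenpa, a gene of the G2/M score. H2afz, H2afx and H2afy2 rose by 1.69, 1.59 and 1.99 log2 units, while H1f0, the linker histone of resting and differentiating cells, was lower at -1.27 (SE 0.0738, adjusted p = 1.83e-07 by edgeR's quasi-likelihood test).

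Most members had far higher levels in GEM-X than in v3.1 counts. Summed over all members, the tubes mouse 1 negative, mouse 1 positive, mouse 2 negative and mouse 2 positive had 5554, 5782, 5361 and 5588 CPM in the GEM-X library and 797.2, 785.4, 732.7 and 736.9 CPM in the v3.1 library. No tube's values overlapped across chemistries. Of 61 members 56 were higher in GEM-X, where 37% of all genes were, and 2 were lower, where 36.2% were, with a median log2 difference of 2.80 over the members and -0.02 over all genes.

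The size of this difference was largest for the S-linked members. The classes were set on counts of both chemistries summed, so they are not independent of the chemistry. The S-linked sum was 7.95, 8.74, 8.54 and 8.72 times as high in GEM-X as in v3.1 in the 4 tubes, the intermediate sum 5.50, 5.50, 5.70 and 5.97 times and the flat sum 5.03, 4.88, 5.0 and 5.54 times. Medians of the members' log2 differences were 3.06, 0.36 and 1.37. The intermediate sum is mostly Hist1h1e (59.7% to 62.2% of it in the 4 tubes). In GEM-X counts the S-linked members made up 69.0% to 70.4% of all member UMIs in the 4 tubes, in v3.1 counts 59.2% to 61.6%.

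**Figure D2:**
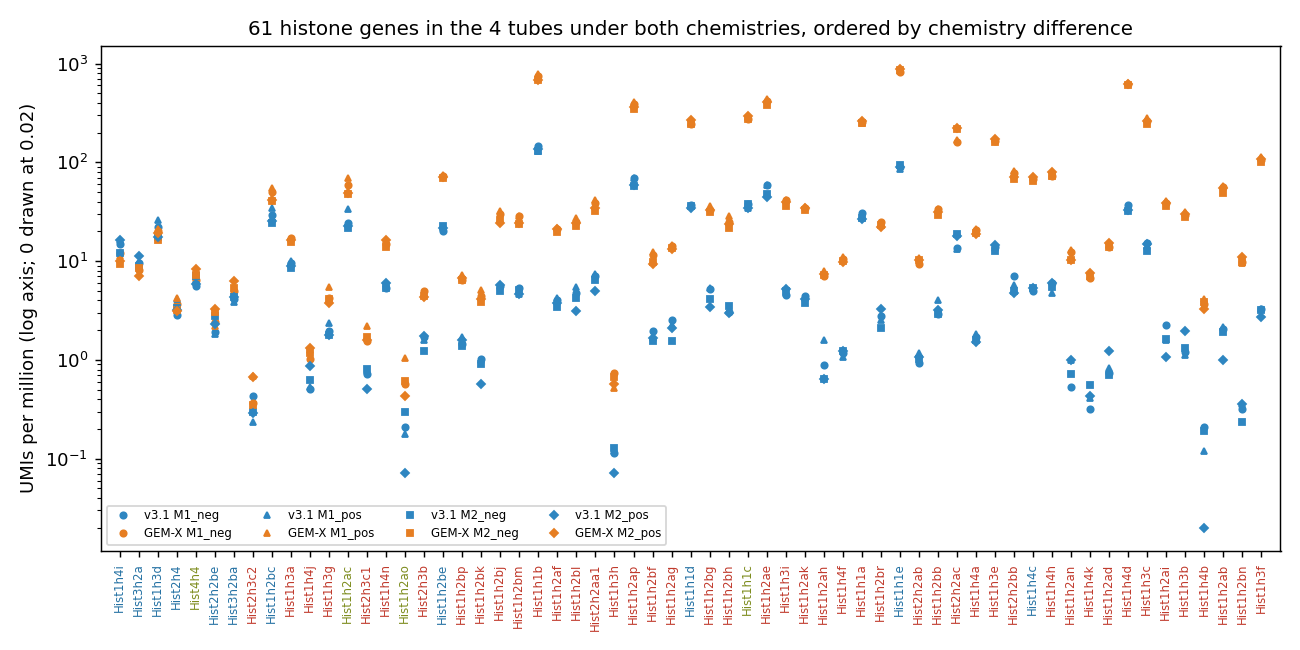
CPM (log axis) of the 61 tested members in each of the 4 tubes, in GEM-X (orange) and v3.1 (blue), ordered from the lowest to the highest chemistry difference, with names coloured by class. Hist1h4i, Hist3h2a and Hist1h3d at the left lie at nearly the same level in both chemistries, while Hist1h2ab, Hist1h2bn and Hist1h3f at the right stand far apart.

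Hist1h3f, an H3 gene, had the largest difference. It held 105.1, 112.5, 101.5 and 108.5 CPM in the GEM-X tubes and 3.26, 3.26, 3.19 and 2.74 CPM in the v3.1 tubes, a log2 difference of 5.08 (SE 0.0426, adjusted p = 5.72e-24 by edgeR's quasi-likelihood test with the tube as a block). The H2B gene Hist1h2bn and the H2A gene Hist1h2ab followed at 5.06 and 4.84. All 3 share sequence with other genes near the 3′ end, Hist1h3f along the whole of it. Among members that share none, Hist1h4d had 622.4, 639.2, 601.5 and 627.1 CPM in GEM-X and 37.0, 34.6, 32.5 and 32.7 CPM in v3.1 tubes, a difference of 4.19. Hist1h4i and Hist3h2a, which were lower in GEM-X, share none either. The part of shared sequence in the chemistry difference was not tested.

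At the other end stood 3 members. Hist1h4i was lower in GEM-X in each tube, with 12.1, 11.2, 9.30 and 10.0 CPM against 15.1, 16.5, 12.1 and 16.2 CPM, a log2 difference of -0.41 (SE 0.0559, adjusted p = 2.38e-06 by edgeR). Hist3h2a had 8.06, 8.97, 8.56 and 7.11 CPM against 9.61, 9.77, 8.96 and 11.3 CPM, a difference of -0.20 (SE 0.0702, adjusted p = 0.0152 by edgeR), and the ranges of the 2 chemistries overlap slightly (8.97 against 8.96 CPM). Without the negative tube of mouse 1 (adjusted p = 0.0671) or the positive tube of mouse 2 (adjusted p = 0.0854) Hist3h2a no longer passed. For Hist1h3d the difference was -0.09 (SE 0.0489, adjusted p = 0.0987 by edgeR). It did pass without the positive tube of mouse 2, at -0.12 (adjusted p = 0.017). Hist1h2bc had 49.7, 55.3, 40.2 and 41.4 CPM in GEM-X and 29.4, 34.2, 24.4 and 25.6 CPM in v3.1 tubes, a difference of 0.75. Of the variant histones outside the clusters 2 of 11 were higher in GEM-X and 9 lower.

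The difference between phases also depended on the chemistry. In a fit with an interaction of chemistry and phase, the S-like difference was larger in GEM-X for 32 of 61 members, where 3.48% of all genes passed that way, and the G2/M-like difference for 45 of 61, where 7.84% did. For the H3 gene Hist1h3b the CPM were 0.497, 19.6 and 85.5 in G1-like, S-like and G2/M-like GEM-X cells and 0.212, 0.83 and 3.68 in v3.1 cells. In v3.1 counts alone 28 members met the S-linked rule, all of them among the 46, and in GEM-X counts alone 47 did, including all 46. Hist1h1c and Hist1h2be turned from higher in S-like cells (0.30 and 0.59) to lower in v3.1 counts alone (-0.50 and -0.38). Both directions of the members are thus present within each chemistry, but their balance is not the same.

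**Figure D3:**
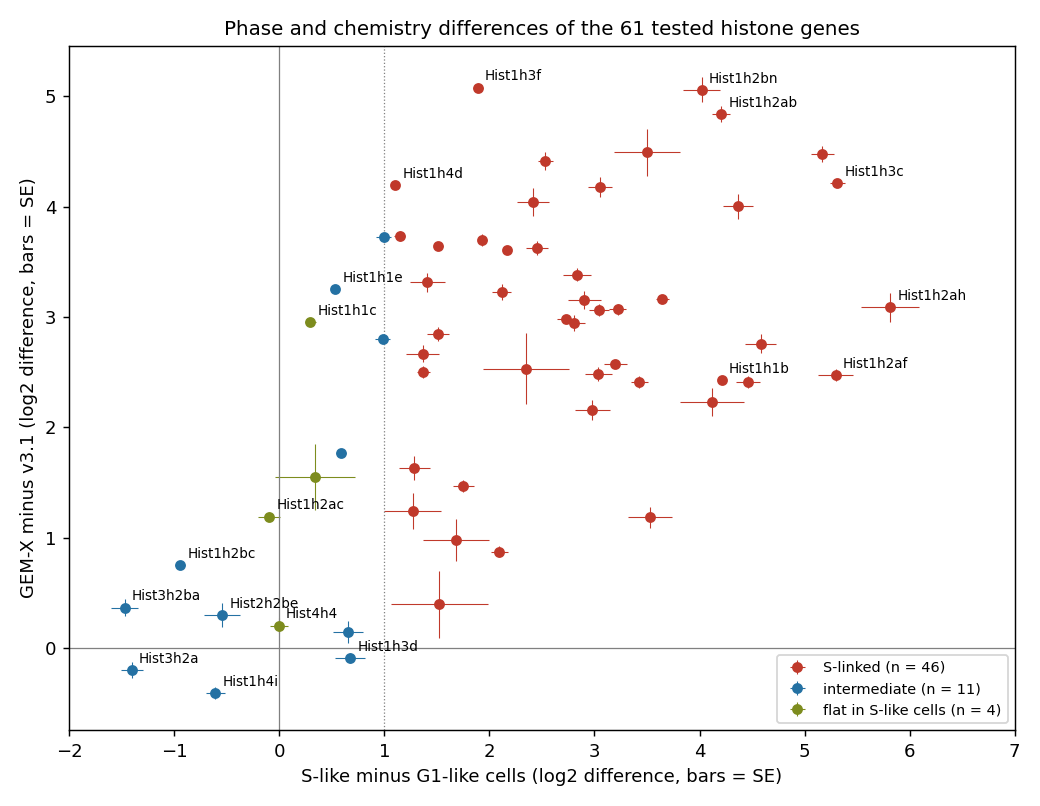
Log2 difference of S-like minus G1-like cells (x axis) against the log2 difference of GEM-X minus v3.1 (y axis), 1 point per tested member with its SE, coloured by class, with a dotted line at 1 on the x axis. The S-linked members lie at 0.39 to 5.08 on the y axis, while Hist1h4i and Hist3h2a lie below 0 on both axes.

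The gate contrast asked whether cells whose lineage had been marked after birth differ from unmarked cells. Summed over all members, the tdTomato-positive tubes had 3754 and 3654 CPM and the negative tubes of the same mice 3647 and 3478 CPM. The positive tubes also held more G2/M-like cells, 18.7% against 17.1% in mouse 1 and 15.0% against 14.1% in mouse 2, with S-like shares of 32% against 32.6% and 27.4% against 26.9%. The part of this in the member sums was not tested directly. Of 61 members 56 lay above 0, with a median log2 difference of 0.08.

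A single member passed as higher in positive tubes, where 0.555% of all genes did, and 0 as lower, where 0.241% did. At an unadjusted p under 0.05, 17 members were higher, where 3.85% of all genes were, and 0 lower, where 2.67% were. The one was Hist1h2ac, with 45.1 CPM in the negative and 55.3 CPM in the positive tube of mouse 1 and with 37.5 and 38.7 CPM in mouse 2, a difference of 0.19 (SE 0.0422, adjusted p = 0.00751 by edgeR's quasi-likelihood test with the mouse as a block). The difference is that of mouse 1, since the mouse 2 tubes lie close together. Within the mice the log2 difference was 0.292 in mouse 1 and 0.046 in mouse 2. It passed neither in DESeq2 nor in either chemistry alone, without the mouse block, without the unnamed cluster of 691 cells or with the cells of highest doublet score left out.

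Within G1-like cells 2 of 52 tested members passed as higher, where 0.211% of all genes did. They were Hist1h2ac, with 38.6, 55.7, 26.6 and 27.6 CPM in the mouse 1 negative, mouse 1 positive, mouse 2 negative and mouse 2 positive tubes (log2 difference 0.34, SE 0.0544, adjusted p = 3.63e-07 by edgeR), and its neighbour Hist1h2bc, with 46.4, 58.6, 35.8 and 38.7 CPM (0.24, SE 0.0496, adjusted p = 0.00079 by edgeR). Here too mouse 1 carried most of the difference. Within S-like cells 0 of 58 members passed in edgeR's test, where 0.0552% of all genes were higher and 0.0276% lower, and at an unadjusted p under 0.05 2 were higher, where 2.62% of all genes were, and 15 lower, where 2.31% were. Within the HSC-like class 0 of 45 passed in edgeR's test, where 0.0287% of all genes were higher, and 4 were higher (2.77% of all genes) and 2 lower (2.51%) at an unadjusted p under 0.05. There Hist1h2ac had 30.8, 47.1, 22.7 and 22.6 CPM in the same order of tubes (0.35, SE 0.0877, adjusted p = 0.107 by edgeR). The S-linked members gave no call between the gates in any of these tests.

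Lineage was read from clusters made without histone, cell cycle, mitochondrial and ribosomal genes, named from marker lists and written as HSC-like, lymphoid-like and so on. The HSC-like class held 8654 cells with 11 to 13 of 14 HSC markers raised in its 3 clusters, and 60.3% of all cells stayed unnamed. The class is nearly without cycling cells: 93% of it had neither score above 0 and 15 cells had both. In the lymphoid-like class 38.8% of 1420 cells had both scores above 0, in the megakaryocyte-platelet-like class 33.8% of 1882, in the B-cell-like class 51.0% of 194, in the neutrophil-like class 59.8% of 448 and in the erythroid-like class 87.4% of 167.

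Against the HSC-like class the members were higher nearly throughout. Of 58 tested members 52 were higher in B-cell-like cells (all genes 23.6%), 52 in erythroid-like (33.6%), 53 in lymphoid-like (25%), 54 in megakaryocyte-platelet-like (24.7%) and 52 in neutrophil-like cells (33%). Median log2 differences were 3.82, 3.5, 3.00, 3.38 and 3.37, and the medians of all genes were -0.15, -0.27, -0.05, -0.05 and -0.15. Summed over the S-linked members, the HSC-like class had 340.6 and 321.3 CPM in the 2 mice and the other 5 classes between 2917 and 6949 CPM. Hist1h3c had 2.69 and 2.43 CPM in HSC-like cells and 178.1 and 227.1 in lymphoid-like, 268.6 and 245.6 in megakaryocyte-platelet-like, 219.4 and 249.7 in neutrophil-like, 227.2 and 182.1 in erythroid-like and 341.1 and 319.4 in B-cell-like cells. Hist1h3b, Hist1h2ah and Hist1h2af, the other members with the largest differences, rose by 6.24 to 7.42 log2 units in the classes where they led.

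**Figure D4:**
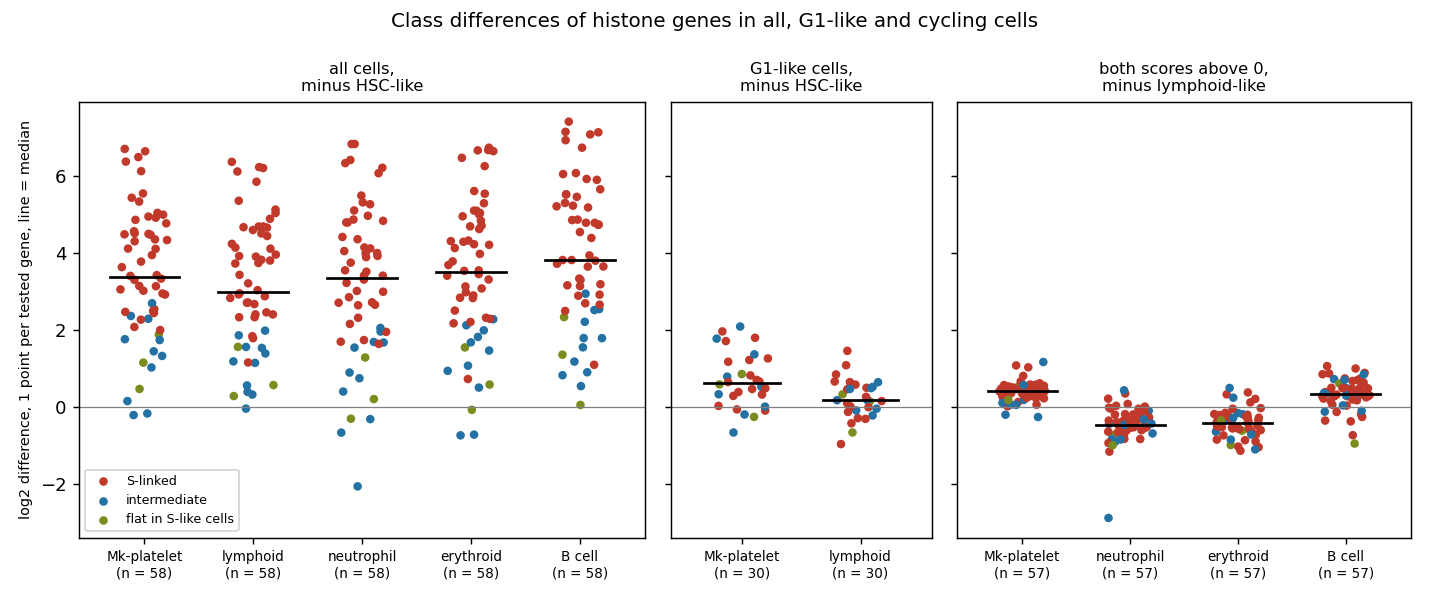
Log2 differences of the named classes, 1 point per tested member coloured by class of member and a line at the median, against the HSC-like class in all cells and in G1-like cells and against the lymphoid-like class in cells with both scores above 0. The medians lie at 3.00 to 3.82 in all cells, at 0.62 and 0.18 in G1-like cells and between -0.46 and 0.41 in cells with both scores.

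Only Hist3h2a in erythroid-like cells and Hist3h2ba in neutrophil-like cells passed as lower than in HSC-like cells. Hist3h2a had 5.65 and 4.55 CPM in erythroid-like and 9.66 and 11 CPM in HSC-like cells (log2 difference -0.71, SE 0.287, adjusted p = 0.032 by edgeR), and it did not pass in DESeq2 (adjusted p = 0.0638). Hist3h2ba had 0.391 and 2.49 CPM in neutrophil-like and 5.94 and 5.28 CPM in HSC-like cells (-2.06, SE 0.521, adjusted p = 0.0018 by edgeR). Both are members that fell in S-like cells. Both were also higher in G2/M-like than in G1-like cells, and G2/M-like cells made up 68.9% of the erythroid-like and 63.6% of the neutrophil-like class. The part of cycling cells in these differences was not tested.

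Within G1-like cells only the lymphoid-like and megakaryocyte-platelet-like classes had enough cells to be compared with the HSC-like class, over 30 tested members, with medians of 0.18 and 0.62. The B-cell-like, erythroid-like and neutrophil-like classes were not compared. The S-linked sum was 343.4 and 324.8 CPM in HSC-like, 343.0 and 371.9 in lymphoid-like and 496.1 and 430.4 in megakaryocyte-platelet-like cells. Of 30 tested members 17 were higher in megakaryocyte-platelet-like cells, where 14.5% of all genes were. Hist1h4i led, with 26.2 and 17.1 CPM against 6.22 and 4.06 CPM in HSC-like cells (2.10, SE 0.237, adjusted p = 3.07e-09 by edgeR), followed by the H2A gene Hist2h2ab at 1.97. Hist1h1b had 64.6 and 53.3 CPM against 17.3 and 16.5 CPM. In G1-like lymphoid-like cells 6 of 30 were higher, where 15.2% of all genes were, led by the H2B gene Hist1h2bg (1.47) and Hist1h2ap (0.85). The lower one there was Hist1h4d (-0.30), where 15.9% of all genes were lower.

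Among cells with both scores above 0 the classes were compared with the lymphoid-like class, since HSC-like cells were too few. Of 57 tested members 26 were higher in megakaryocyte-platelet-like cells (45.6%, all genes 15.7%) and 18 in B-cell-like cells (31.6%, all genes 12.7%). In erythroid-like cells 21 were lower (36.8%, all genes 34.4%) and in neutrophil-like cells 27 (47.4%, all genes 26.8%). The erythroid-like share is close to that of all genes. Median log2 differences were 0.41, 0.35, -0.40 and -0.46, against -0.06 to 0.02 over all genes. The S-linked sum was 5228 and 5633 CPM in lymphoid-like, 7016 and 7262 in megakaryocyte-platelet-like, 8251 and 6194 in B-cell-like, 4745 and 3642 in erythroid-like and 3846 and 4776 in neutrophil-like cells. In both mice the megakaryocyte-platelet-like class lay above the lymphoid-like class and the erythroid-like and neutrophil-like classes below it. The median depth of all cells was 11360 UMIs in the lymphoid-like, 9670 in the megakaryocyte-platelet-like, 34490 in the erythroid-like and 25360 in the neutrophil-like class, and the part of depth in these differences was not tested.

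Single members kept their own pattern in these cycling cells. Hist1h3d had 53.4 and 42.8 CPM in megakaryocyte-platelet-like and 21.4 and 21.3 CPM in lymphoid-like cells (log2 difference 1.18, SE 0.162, adjusted p = 5.83e-09 by edgeR's quasi-likelihood test). Hist2h2ab was higher in megakaryocyte-platelet-like (1.04) and in B-cell-like cells (1.07). Hist1h1b was the 1 member that passed as higher in erythroid-like and in neutrophil-like cells (0.38 and 0.36). It had 1115 and 1204 CPM in lymphoid-like, 1471 and 1082 CPM in erythroid-like and 1165 and 1433 CPM in neutrophil-like cells, so the classes overlapped. Its erythroid-like CPM were above the lymphoid-like CPM in mouse 1 only, which had 44 such erythroid-like cells, and below them in mouse 2. Its neutrophil-like CPM were above them in both mice. Hist3h2ba in neutrophil-like cells (-2.88) and Hist1h2ai, an H2A gene, in erythroid-like cells (-1.13) had the lowest differences.

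A cluster of 691 cells that met no marker list stood out by members although histone genes had no part in the clustering. It had 62.8% of its cells with the G2/M score alone and 33.4% with neither score, and a median of 7928 UMIs. Its leading genes were Hist1h2bc and Hist1h4i. The others of the first 10 were Gm15892, Gm8251, Spp1, Ovgp1, 4933408B17Rik, Ccnb2, Ifi27l2a and Ptms. Of these Ccnb2, which encodes the mitotic cyclin B2, is itself a gene of the G2/M score. Hist1h2bc had 375.2 and 415.1 CPM there, against 57.3 and 74.1 CPM in the next highest cluster of each mouse. Hist1h4i had 112 and 146.4 CPM against 18.7 and 18.6 CPM. Hist1h2ac, Hist2h2be and Hist3h2a were also highest there in both mice, with Hist3h2a at 24.4 and 28.7 CPM against 16.4 and 16.9 CPM. For Hist2h2be in mouse 1 this was nearly a tie, at 4.02 against 3.97 CPM.

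Hist1h1b, in contrast, had 116.6 and 125.6 CPM in this cluster and up to 1971 and 1354 CPM elsewhere, and Hist1h3c 39.3 and 43.1 against up to 546.1 and 541.7 CPM. These are descriptions of a cluster led by members and carry no test. It took 2.47% and 2.74% of the cells of the negative and positive tube of mouse 1 and 1.73% and 1.81% of those of mouse 2.

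**Figure D5:**
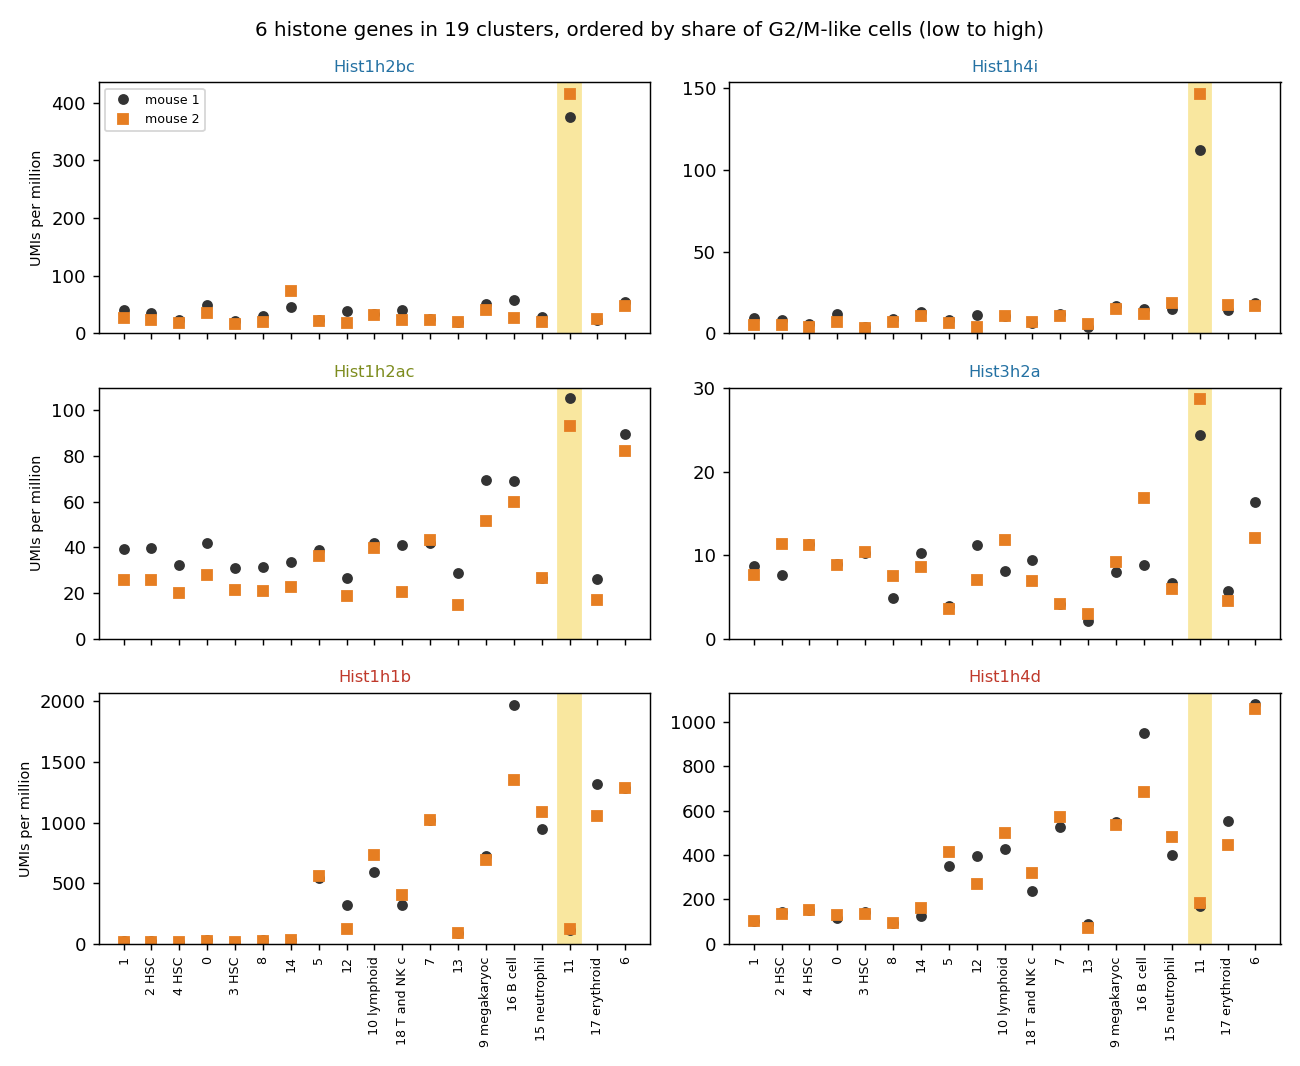
CPM of 6 members in 19 clusters, 1 point per mouse, clusters ordered from the lowest to the highest share of G2/M-like cells and the unnamed cluster of 691 cells shaded. Hist1h2bc, Hist1h4i, Hist1h2ac and Hist3h2a are highest in the shaded cluster in both mice, while Hist1h1b and Hist1h4d are not.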

How the data were processed

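The authors deposited raw UMI counts per gene and hashtag and cell barcode. Per the file headers, version 8.0.1 of Cell Ranger made the GEM-X matrix and version 7.1.0 the other, whereas the submitters' processing notes name Cell Ranger 7.0.0 and mm10. Which matrix is which chemistry was inferred from matrix names and software versions, since the labels leave this unstated. Hashtags were paired with mouse and gate by a deposited text.

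Cells with at least 1000 genes, at most 10% mitochondrial UMIs and exactly 1 hashtag were used. A hashtag was called at a posterior of 0.5 in a Gaussian mixture per chemistry (scikit-learn 1.9.0). Cells with several hashtags (2091 and 2364) were left out as doublets. Scrublet (scanpy 1.11.5) called 0% at its automatic threshold and so did not work, and leaving out the 5% of cells with the highest score served as an alternative. Phase scores followed scanpy's rule, and Leiden clustering used resolution 1 (leidenalg 0.10.2). A cluster took a name if 66.7% of its detected list genes, and no fewer than 3, stood 0.5 log2 units above the other cells.

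UMIs were summed per mouse, tube or tube and chemistry and tested with edgeR 4.0.16 in R 4.3.3 (quasi-likelihood, TMM, filterByExpr, dispersion at 1e-04 or above, Benjamini-Hochberg at 0.05), with mouse or tube as a block. DESeq2 1.42.0 was an alternative. The tests were checked on simulated data. Phase names and tests use the same cells, so p-values between phases and classes are too small. SEs are the log2 difference over the square root of F.

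Members named were, by rule, the 6 S-linked and the 4 cycle-independent or intermediate members with the highest mean CPM, every gate call, the 3 largest chemistry differences in each direction, the 2 largest differences per lineage comparison and direction among those that passed, and 2 lists of histone genes taken from general knowledge; pathway lists were given as counts with up to 4 members named. Others were chosen after their values were seen. Members, gene lists and tests were chosen with earlier results of these data known. The 4 score ranges, the comparison within cycling cells, the HSC-like gate test and the fits without cluster 11 were added after the data had been seen.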

Additional observations from a re-analysis of the deposited data

Results flagged for a closer look

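Differences between phases were larger in GEM-X than in v3.1 counts when that difference was itself tested, as an interaction of chemistry and phase in edgeR's quasi-likelihood test. This held for 32 of 61 members between S-like and G1-like cells, with 0 smaller, and the largest was that of Hist1h2an at 3.44 log2 units (SE 0.691, adjusted p = 0.00326). Hist1h2an had 0.443 and 10.4 CPM in G1-like and S-like GEM-X cells and 0.212 and 0.471 CPM in v3.1 cells. Between G2/M-like and G1-like cells it held for 45 members, with 0 smaller, and the largest was that of Hist1h3b at 3.43 log2 units (SE 0.658, adjusted p = 0.000463).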

How the results depend on the processing

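Of the counts of members recomputed under the alternatives, 235 stayed within 1.5 times the reported count and 23 did not. The single gate call became 0 in DESeq2, in GEM-X alone, in v3.1 alone, without the 5% of cells with the highest Scrublet score, without cluster 11 and in the fit without the mouse block. Leaving out a tube leaves 1 tube in a gate and no room for the mouse block, and such fits gave 0 to 0 members and 0 to 1 calls over all genes, so the loss follows from their design. Over all genes the gate gave 132 calls, 94 with DESeq2 size factors, 5 in DESeq2, 1 in GEM-X alone, 61 in v3.1 alone, 43 without the highest Scrublet scores, 68 without cluster 11, 208 without a filter and 0 without the block (102 at an unadjusted p under 0.05). The 2 tubes of a mouse come from 1 animal, which is why the block was used. Without the block Hist1h2ac lay from -0.121 to 0.46 with a tube left out, values that mix the gates with the gap between mice.

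In v3.1 counts alone the members lower with both scores were 4 and those higher with the S score alone 3. From both scores to the G2/M score alone 10 were then higher and 12 lower, and 3 were higher without cluster 11, the unnamed cluster of 691 cells. The count lower with both scores was 2 without a filter, 2 without the highest Scrublet scores and 2 in sums per tube. In v3.1 counts alone Hist1h1c turned to -0.502 and Hist1h2be to -0.379 between S-like and G1-like cells, and Hist4h4 turned to 0.676 with S-like cells chosen by their share of S score UMIs. The members lower in GEM-X ranged from 1 to 2 over left-out tubes. Clusters at resolution 0.6, with 4737 lymphoid-like cells, gave 20 higher and 4 lower lymphoid-like members, against 53 and 0 at resolution 1. They gave 2 lower megakaryocyte-platelet-like members, against 0. Of 14380 genes 5604 were then called in either direction in the lymphoid-like and 8844 in the megakaryocyte-platelet-like comparison. DESeq2 gave 0 lower in erythroid-like cells. The cause of these shifts was not tested. Of the values of named members 315 kept direction and call, 15 lost the call, 2 gained it, 6 moved and 4 reversed. With phase classes taken after thinning each cell to 3000 UMIs, all 46 S-linked members were kept and 6 members were flat. That thinning left out 1009 shallow cells. Other settings gave no value, namely each chemistry alone for the chemistry comparison and Scrublet's automatic calls, which marked no cell.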

Other observations

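Cells were also ranked by the S score and cut into 10 equal bins. The S-linked sum was 379.7 and 364 CPM in the lowest bin of the 2 mice, 1040 and 706.3 CPM in the fifth, 2863 and 2257 CPM in the sixth, 4075 and 4636 CPM in the ninth and 3408 and 3653 CPM in the highest. The flat members reached their highest sums, 333.1 and 359.2 CPM, in the seventh bin and stood at 203.1 and 220.2 CPM in the highest. Median depth rose from 7119 to 13360 UMIs between the lowest and the highest bin, and its part was not tested.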
